A study of Mus musculus with 20 samples.

Results

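The MAP2K, MAP3K and MAP4K genes encode the protein kinases that stand above the MAP kinases ERK, p38 and JNK in brain and other tissues. They were taken from a table of 23845 genes as every row whose symbol was Map2k, Map3k or Map4k followed by a number alone, with Taok1, Taok2, Taok3, Mink1 and Tnik added. This gave 33 genes, 7 of the MAP2K family, 16 of the MAP3K family and 10 of the MAP4K family with its Taok, Mink1 and Tnik relatives, and all 33 passed the filter on low counts that left 16063 genes. RNA had been sequenced from brain of mice labelled strain C57/Bl6J in 20 libraries. Wild type and the lines J27b, J27a, J17a, J2 lf/lf and J1 lf/lf had 3 libraries each, J17b had 2, and the series describes the lines as single-isoform knockouts of JNK with their controls, all on a normal diet. The labels do not spell out the genotype codes, nor whether the isoform that a code names was removed or retained, and each group keeps its label here. Age and sex are not stated in the sources used here, nor whether the replicates come from different animals, and the p-values therefore measure only the spread between these samples.

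JNK, the kinase these lines were built on, is switched on by phosphorylation in its activation loop. MAP2K kinases carry out that step, with Map2k4 (MKK4) and Map2k7 (MKK7) acting on JNK, Map2k3 and Map2k6 on p38, Map2k1 and Map2k2 (MEK1 and MEK2) on ERK1/2 and Map2k5 on ERK5, and Map2k4 can also act on p38. MAP3K kinases phosphorylate the MAP2K kinases, and MAP4K kinases of the STE20 group relay signals from the cell surface and the cytoskeleton to the MAP3K kinases. In neurons the mixed lineage kinases and the leucine zipper kinase Map3k12 (DLK) are known for signalling axon injury and apoptosis through JNK.

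The stretch that a MAP3K phosphorylates is shown for the 7 MAP2K genes, because it is the point where the tiers meet. Each line gives the coding DNA of the activation segment, 5′ to 3′ on the coding strand, from the reference transcripts of GENCODE M21 on mm10, and the capitals mark the codons of both phosphorylated residues.
Map2k1: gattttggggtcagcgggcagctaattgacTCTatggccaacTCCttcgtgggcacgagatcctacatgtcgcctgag
Map2k2: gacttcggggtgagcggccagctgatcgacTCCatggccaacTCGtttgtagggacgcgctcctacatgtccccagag
Map2k3: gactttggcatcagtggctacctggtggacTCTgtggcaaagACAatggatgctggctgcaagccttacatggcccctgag
Map2k4: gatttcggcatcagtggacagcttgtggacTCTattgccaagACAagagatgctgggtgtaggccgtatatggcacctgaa
Map2k5: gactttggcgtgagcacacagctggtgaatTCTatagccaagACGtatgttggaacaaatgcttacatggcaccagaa
Map2k6: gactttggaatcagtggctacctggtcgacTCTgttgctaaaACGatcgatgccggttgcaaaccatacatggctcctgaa
Map2k7: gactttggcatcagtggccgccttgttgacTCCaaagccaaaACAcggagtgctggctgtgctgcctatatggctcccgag
The stretches lie on the forward strand at chr10:81119310-81119495 for Map2k2, chr11:60946697-60947116 for Map2k3, chr11:110496392-110497902 for Map2k6 and chr8:4244532-4244700 for Map2k7. They lie on the reverse strand at chr9:64191649-64193773 for Map2k1, chr11:65696360-65707058 for Map2k4 and chr9:63257043-63263134 for Map2k5. Each is interrupted by an intron, so the genomic span is longer than the 78 or 81 bases printed. Over these bases the ERK1/2 activators Map2k1 and Map2k2 were 80.8% identical and the p38 activators Map2k3 and Map2k6 were 84.0% identical. The JNK activators Map2k4 and Map2k7 were 71.6% identical, with 23 of 81 bases different, and Map2k4 was closer to the p38 activator Map2k3, at 77.8%. The second capital codon starts with TC in Map2k1 and Map2k2 and with AC in the other members. The whole reference transcripts of Map2k1 and Map2k2 shared 0.207% and 0.122% of their 50-base words with each other.

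Wild type replicate 3 stood apart from the other libraries in these genes, and the comparisons with Wild type are given with and without it. Its median absolute deviation from the median library, on the log2 scale, was 0.23 over the 33 members and 0.25 over all tested genes, against at most 0.13 over the members in any other library. In that library 19 of 33 members deviated by more than 0.2. It was the lowest of the 20 libraries for Map2k2, Map2k5, Map2k7, Map3k3, Map3k10, Map3k11, Map3k12, Map4k2, Mink1 and Taok2, and the highest for Map2k4, Map3k2, Map3k7, Map4k3 and Map4k5. The deviation went with the GC content of the coding sequence. In the 11 members with the highest GC content (55.9 to 63.9%) the median deviation was -0.25, with 10 of 11 below the median library, and in the 11 with the lowest (44.1 to 49.6%) it was 0.17. Over the 14666 tested genes with a known coding sequence the genes of the highest and lowest GC content, split in the same way, had medians of -0.27 and 0.23. J17a replicate 2 went in the same direction to a smaller extent, with 12 members deviating by more than 0.2. Its median was -0.16 in the members with the highest GC content (8 of 11 below) and 0.10 in those with the lowest (9 of 11 above). Over the tested genes the medians in J17a replicate 2 were -0.12 and 0.10. In J17b replicate 2 the medians at highest and lowest GC content were -0.05 and 0.16 over the members. They were -0.05 and 0.05 over the tested genes. In J1 lf/lf replicate 1 they were -0.07 and 0.06 over the tested genes, but -0.08 and -0.11 over the members. The part of GC content in the results was not tested.

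**Figure D1:**
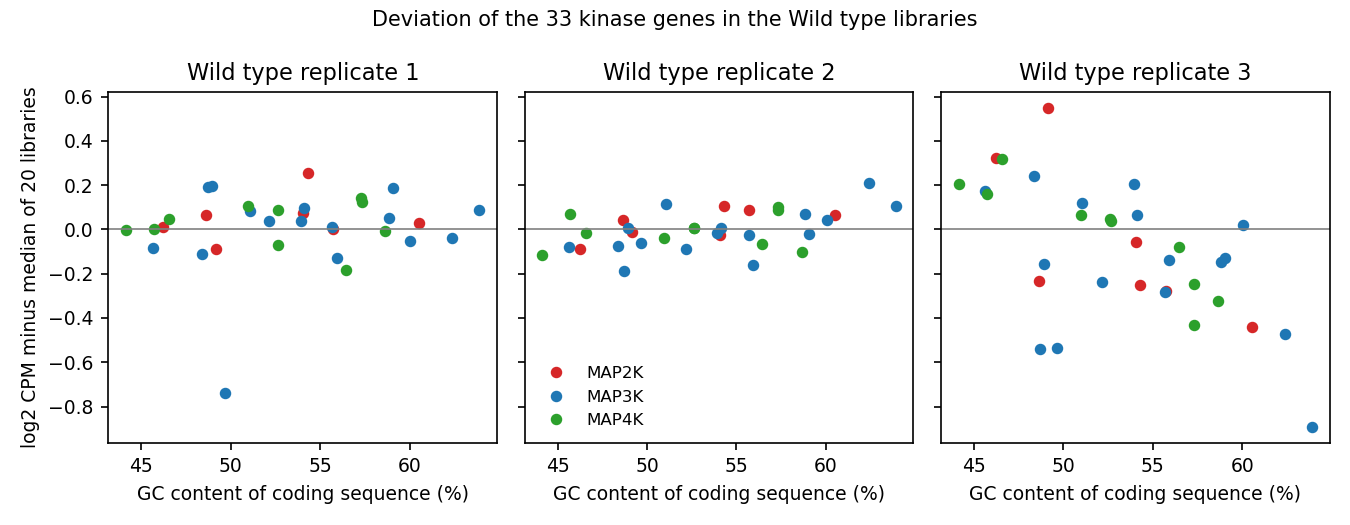
Deviation of each of the 33 kinase genes (log2 CPM minus the median of the 20 libraries, y axis) against the GC content of its coding sequence (percent, x axis) in the 3 Wild type libraries, coloured by family. In replicate 3, 10 of the 11 members with the highest GC content lie below 0, with a median of -0.25 over the 11, while 2 members in replicate 1 and 1 in replicate 2 deviate by more than 0.2.

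Other features of the libraries bear on the same comparisons. Library totals ran from 21395041 to 33828755 estimated counts. Mapk8, which encodes JNK1, was 74.6 and 79.2 CPM (estimated counts scaled to library size with TMM normalization factors) in J17b and 102 to 140.4 CPM elsewhere. Mapk9, which encodes JNK2, was 177, 171 and 58.1 CPM in J2 lf/lf and 274 to 360.4 CPM elsewhere, so that replicate 3 of J2 lf/lf differed from its group. Counts are per gene and do not show which isoform was made. Rn45s, a ribosomal RNA precursor, was 3066 to 6718 CPM in the 10 libraries with title numbers up to 10, which include all of Wild type, J1 lf/lf and J2 lf/lf and 1 of J17a, and 17321 to 54698 CPM in the other 10. The tissue label was checked against the markers, with neuronal markers summing to 5268 to 6174 CPM and lymphocyte markers to 0.562 to 1.54 CPM. Summed anterior pituitary markers differed between libraries of a group, from 2.52 to 2111 CPM in Wild type and from 4.72 to 3137 CPM in J1 lf/lf, and olfactory bulb markers reached 91.5 CPM in J1 lf/lf. Some marker sums also lay apart between groups. Among them, cerebellar markers were 624 to 705 CPM in J27b and 821 to 1164 CPM in Wild type. They were 993 to 1258 CPM in J17b and 783 to 907 CPM in J1 lf/lf. Striatal markers were 391 to 411 CPM in J27a and 423 to 563 CPM in Wild type. In both sums the other lines overlapped Wild type. The part of these features in the results was not tested.

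The 33 kinase genes together made up 1501 ± 39.3 TPM (a level per transcript length, with an equal total in all libraries, SD, n = 20). The MAP2K genes contributed 618 TPM and the MAP3K genes, the most numerous, 349 TPM. The MAP4K genes with their Taok, Mink1 and Tnik relatives contributed 534 TPM, of which 156 TPM came from the TAO kinases Taok1, Taok2 and Taok3. Within the MAP2K family the ERK1/2 activators held the most, 348 TPM, the JNK activators 215 TPM, the ERK5 activator Map2k5 30.3 TPM and the p38 activators 24.8 TPM. Map2k1 was the most abundant member at 286 ± 16.3 TPM (SD, n = 20), higher than 96.3% of the tested genes. Its partner Map2k2 was 61.8 ± 5.21 TPM, and the ratio of their TPM values ran from 4.02 to 5.88 with a median of 4.63. Map2k4 was 148 ± 14.0 TPM and Map2k7 67.1 ± 3.21 TPM. The p38 activators were Map2k6 at 15.5 ± 3.04 TPM and Map2k3 at 9.31 ± 1.27 TPM, the lowest of the family, and their ranges of 11.8 to 23.3 and 6.96 to 11.2 TPM did not overlap. In the GENCODE annotation Map2k7 shared 32.8% of its 50-base words with the overlapping model Gm49320, and its estimated counts were whole in all 20 libraries.

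Map2k1 showed how even the most abundant member was over the groups. Map2k1 was 274, 256 and 251 CPM in Wild type, 245, 287 and 261 in J1 lf/lf, 274, 278 and 270.0 in J2 lf/lf, 287, 239.8 and 254 in J17a, 279.8 and 232 in J17b, 250.2, 263 and 267 in J27a, and 260.0, 243 and 257 in J27b. The highest library exceeded the lowest 1.24-fold, and every group overlapped Wild type.

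Among the MAP3K genes the mixed lineage kinases were the largest group, at 165 TPM. Most of this was Map3k10 (MLK2) at 125 ± 16.9 TPM (SD, n = 20), with Map3k9 (MLK1) at 22.9 ± 2.13 TPM and Map3k11 (MLK3) at 16.8 ± 1.77 TPM. The leucine zipper kinases summed to 60.6 TPM, with Map3k12 at 48.0 ± 2.55 TPM and its close relative Map3k13 (LZK) at 12.6 ± 1.49 TPM. The 4 MEKK genes summed to 58.1 TPM, led by Map3k4 (MEKK4) at 27.8 ± 1.66 TPM, followed by Map3k3 at 15.5 ± 1.13 TPM, Map3k2 at 10.1 ± 0.962 TPM and Map3k1 (MEKK1) at 4.69 ± 0.687 TPM. Map3k7 (TAK1), the kinase of TGF-beta and inflammatory receptor signalling, was 30.1 ± 2.75 TPM. The ASK kinases respond to oxidative stress, and Map3k5 (ASK1) was 21.1 ± 1.91 TPM, Map3k6 (ASK2) 3.95 ± 0.475 TPM and Map3k15 (ASK3) 1.06 ± 0.361 TPM, the lowest of the family. Map3k14 (NIK), which acts on the noncanonical NF-kappaB pathway, was 3.84 ± 0.496 TPM, Map3k19 3.67 ± 0.593 TPM and Map3k8 (Tpl2), a kinase of the ERK pathway in immune cells, 1.26 ± 0.377 TPM. Zak, which RefSeq lists as a synonym of Map3k20 and which the selection by symbol left out, was 3.46 to 5.51 TPM.

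The most and the least abundant MAP3K differed in how far their libraries spread. Map3k10 was 206, 209 and 105 CPM in Wild type, 156, 178 and 187 in J1 lf/lf, 181, 208 and 207 in J2 lf/lf, 205, 151 and 195 in J17a, 185 and 145 in J17b, 202, 207 and 193 in J27a, and 195, 206 and 188 in J27b. Wild type replicate 3 was the lowest of the 20 libraries and the next lowest value was 145 CPM. Map3k15 was 0.989, 1.63 and 1.15 CPM in Wild type, 2.73, 1.64 and 1.58 in J1 lf/lf, 2.46, 1.28 and 1.33 in J2 lf/lf, 1.76, 2.09 and 2.16 in J17a, 2.56 and 2.83 in J17b, 1.04, 1.25 and 2.72 in J27a, and 2.63, 1.47 and 2.50 in J27b. Both J17b libraries were above all 3 Wild type libraries, but single libraries of J1 lf/lf, J27a and J27b exceeded the lower of them. These low levels rested on 28.6 to 80.0 estimated counts per library. Map3k15 overlaps Pdha1 on the opposite strand and shares 10.7% of its 50-base words with it, Map3k10 shares 13.3% with Ttc9b and Map3k12 16.6% with Pcbp2, each on the opposite strand. Estimated counts were fractional in all 20 libraries for Map3k15, in 19 for Map3k12 and in 0 for Map3k10. Whether strand was used is not stated in the sources. It is therefore not known here whether reads in the shared stretches of Map3k15, Map3k12 and Map3k10 were told apart from those of their partners. Map3k12 shared words with 670 genes, so its fractional counts do not show which gene the reads were divided with.

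The MAP4K genes were led by the HGK group, 272 TPM in sum. Mink1 was 164 ± 9.37 TPM (SD, n = 20), Map4k4 (HGK) 57.1 ± 4.96 TPM and Tnik 50.4 ± 3.13 TPM, and these kinases act on JNK signalling and the actin cytoskeleton. The TAO kinases, which phosphorylate MAP3K and MAP2K partners and act on microtubules, summed to 156 TPM, with Taok2 at 78.5 ± 5.50 TPM, Taok1 at 49.5 ± 5.63 TPM and Taok3 at 28.5 ± 1.63 TPM. Map4k3 was 47.6 ± 4.85 TPM, Map4k2 34.1 ± 2.53 TPM and Map4k5 23.3 ± 1.64 TPM. Map4k1 (HPK1), a kinase of blood cells, was the lowest of all members at 0.648 ± 0.231 TPM. Its values rested on 6 to 34 counts per library. Mink1 was 366, 353 and 279.9 CPM in Wild type, 320.1, 334 and 331 in J1 lf/lf, 344, 343 and 319 in J2 lf/lf, 372, 297 and 323 in J17a, 339 and 311 in J17b, 332, 328 and 336 in J27a, and 315, 341 and 333 in J27b. Mink1 was lowest in Wild type replicate 3. Map4k1 was 0.512, 0.562 and 0.555 CPM in Wild type, 0.647, 0.536 and 0.788 in J1 lf/lf, 0.701, 0.248 and 1.05 in J2 lf/lf, 1.03, 0.616 and 1.06 in J17a, 0.706 and 0.518 in J17b, 0.395, 0.567 and 1.18 in J27a, and 0.921, 0.536 and 0.523 in J27b. J17a had the largest group mean and its libraries lay above all Wild type libraries, but they overlapped those of every other line.

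**Figure D2:**
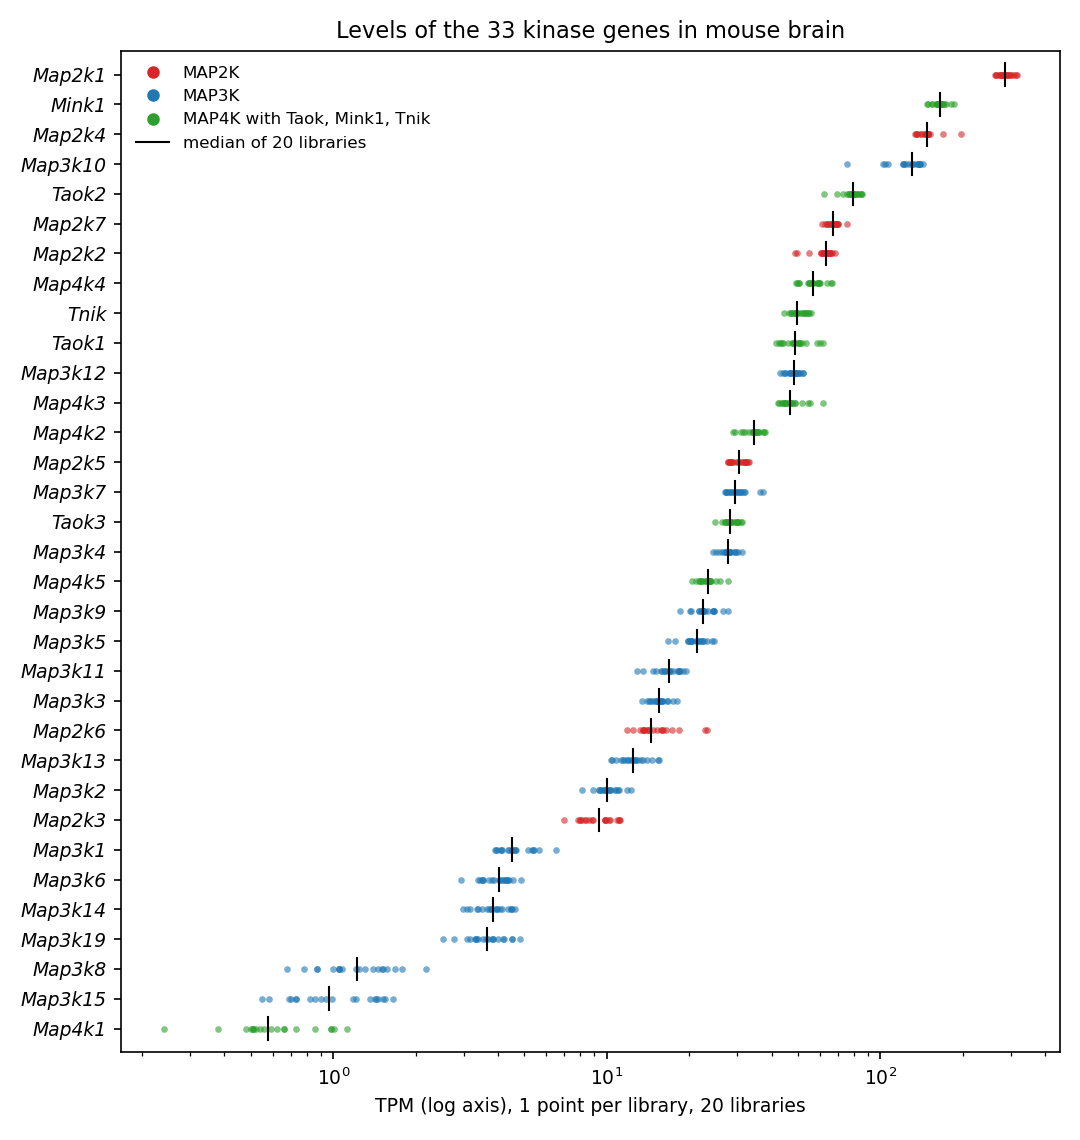
TPM of the 33 kinase genes (log axis), 1 point for each of the 20 libraries, with the median as a black line and colour by family. Map2k1 lies at the top and Map4k1 at the bottom, with means of 286 and 0.648 TPM, and the spread over libraries is widest in the 3 least abundant genes.

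The members varied little between libraries. The SD of log2 CPM within groups had a median of 0.11 over the members and 0.17 over all tested genes. The ratio of the highest to the lowest group mean had a median of 1.16, was under 1.2 for 20 of 33 members and under 1.5 for 29 of 33, and was largest for Map3k15 at 2.15. In bulk RNA, fewer cells of a type and less RNA per cell cannot be told apart.

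Map2k4 and Map2k7, the kinases that act directly on JNK, did not pass the test in any line. Map2k4 was 221, 207 and 275 CPM in Wild type, 249.7, 219.9 and 207 in J1 lf/lf, 200.1, 212 and 219.5 in J2 lf/lf, 201, 219.8 and 221 in J17a, 213 and 213 in J17b, 218, 220.4 and 223 in J27a, and 230.1, 212 and 222 in J27b. Wild type replicate 3 was the highest of the 20 libraries, and without it the Wild type libraries lay inside the range of the lines. The log2 fold changes of Map2k4 against Wild type, with 95% intervals not adjusted over genes, were -0.05 (-0.23 to 0.12) in J1 lf/lf, -0.15 (-0.33 to 0.02) in J2 lf/lf, -0.13 (-0.31 to 0.05) in J17a, -0.14 (-0.34 to 0.06) in J17b, -0.09 (-0.27 to 0.09) in J27a and -0.08 (-0.26 to 0.10) in J27b. The lowest adjusted p of Map2k4 against Wild type was 0.64 (edgeR). Without Wild type replicate 3 the estimates were -0.02 to 0.08, and those of J1 lf/lf, J27a and J27b changed sign. Map2k7 was 88.0, 93.4 and 72.5 CPM in Wild type, 76.2, 84.7 and 87.7 in J1 lf/lf, 91.3, 94.7 and 88.2 in J2 lf/lf, 90.9, 85.8 and 90.7 in J17a, 85.0 and 85.1 in J17b, 85.5, 88.3 and 86.5 in J27a, and 90.3, 88.2 and 84.6 in J27b. Here Wild type replicate 3 was the lowest of the 20 libraries. The log2 fold changes of Map2k7 against Wild type were -0.03 (-0.19 to 0.13) in J1 lf/lf, 0.11 (-0.05 to 0.27) in J2 lf/lf, 0.07 (-0.09 to 0.23) in J17a, 0.0064 (-0.17 to 0.19) in J17b, 0.03 (-0.12 to 0.19) in J27a and 0.05 (-0.11 to 0.21) in J27b, with a lowest adjusted p of 0.681. Without Wild type replicate 3 they were -0.13 to 0.01, and those of J17a, J17b, J27a and J27b changed sign. All 12 intervals lay within a 1.5-fold change in either direction. The ratio of Map2k4 to Map2k7 in TPM ran from 1.91 to 3.21 with a median of 2.17, and the highest ratio was in Wild type replicate 3.

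**Figure D3:**
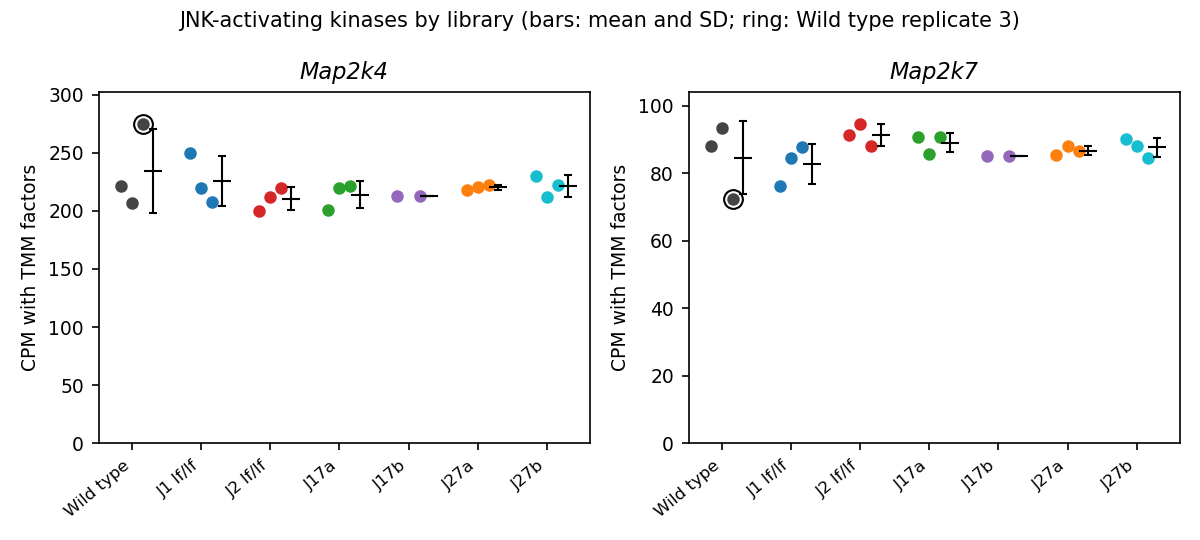
CPM of Map2k4 and Map2k7 in each library by group, with the group mean and SD as black bars and Wild type replicate 3 ringed. The ringed library is the highest of 20 for Map2k4 and the lowest of 20 for Map2k7.

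Whether any member differed anywhere between the 7 groups was asked in 1 test with 6 degrees of freedom. edgeR called 0 of 33 members at an adjusted p under 0.05, where it called 0.0872% of all tested genes, 14 of 16063. At an unadjusted p under 0.05 there were 4 members, 12.1%, beside 6.71% of all genes. The DESeq2 test likewise called 0 members with 4 at an unadjusted p under 0.05, and limma on TPM called 0 with 0. The shares of all genes in the DESeq2 and limma tests are not given here. With Wild type replicate 3 left out edgeR again called 0 members, and the same 4 were at an unadjusted p under 0.05, beside 0.71% of all genes called and 12% at that unadjusted p. The 4 were Taok1, Map3k13, Map3k5 and Map2k6.

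Taok1, the TAO kinase that also acts on microtubules, had the smallest p. Taok1 was 259, 239.7 and 299 CPM in Wild type, 239.6, 219 and 234 in J1 lf/lf, 234, 250.1 and 236 in J2 lf/lf, 267, 308 and 261 in J17a, 255 and 313 in J17b, 274, 257 and 287 in J27a, and 273, 272 and 269 in J27b. J1 lf/lf was the lowest group, and its highest library was nearly level with the lowest Wild type library. The group means ran from 231 CPM in J1 lf/lf to 284 CPM in J17b, a ratio of 1.23 (unadjusted p = 0.0197, adjusted p = 0.6 with edgeR, and 0.119 adjusted without Wild type replicate 3). Map3k13 was 36.2, 34.9 and 40.7 CPM in Wild type, 35.1, 31.8 and 30.0 in J1 lf/lf, 30.7, 31.8 and 35.6 in J2 lf/lf, 39.3, 36.2 and 38.1 in J17a, 33.9 and 41.4 in J17b, 41.2, 35.5 and 37.7 in J27a, and 32.3, 33.6 and 29.5 in J27b. The LZK gene Map3k13 had its lowest group means in J1 lf/lf, J2 lf/lf and J27b, and of these only J27b lay below all Wild type libraries. The group means ran from 31.8 CPM in J27b to 38.1 CPM in J27a, a ratio of 1.20 (unadjusted p = 0.0236, adjusted p = 0.63). Map3k5 was 50.01, 51.1 and 51.3 CPM in Wild type, 47.4, 44.2 and 38.7 in J1 lf/lf, 44.6, 49.5 and 47.1 in J2 lf/lf, 47.3, 44.8 and 44.3 in J17a, 40.3 and 45.8 in J17b, 52.0, 48.8 and 54.4 in J27a, and 46.2, 45.7 and 49.4 in J27b. The ASK1 gene Map3k5 lay below every Wild type library in J1 lf/lf, J2 lf/lf, J17a, J17b and J27b, and Wild type replicate 3 was close to the other Wild type libraries. These 5 groups are set against the same 3 Wild type libraries. The group means ran from 43.1 CPM in J17b to 51.7 CPM in J27a, a ratio of 1.20 (unadjusted p = 0.0291, adjusted p = 0.654). Map2k6 was 10.7, 11.3 and 16.7 CPM in Wild type, 10.1, 10.4 and 10.9 in J1 lf/lf, 10.9, 8.996 and 9.85 in J2 lf/lf, 12.3, 12.2 and 10.9 in J17a, 12.9 and 17.3 in J17b, 13.4, 14.2 and 10.6 in J27a, and 12.3, 11.5 and 11.8 in J27b. The p38 activator Map2k6 was higher in J17b replicate 2 and Wild type replicate 3 than in each of the other 18 libraries. The group means ran from 9.91 CPM in J2 lf/lf to 15.1 CPM in J17b, a ratio of 1.53 (unadjusted p = 0.0327, adjusted p = 0.667).

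**Figure D4:**
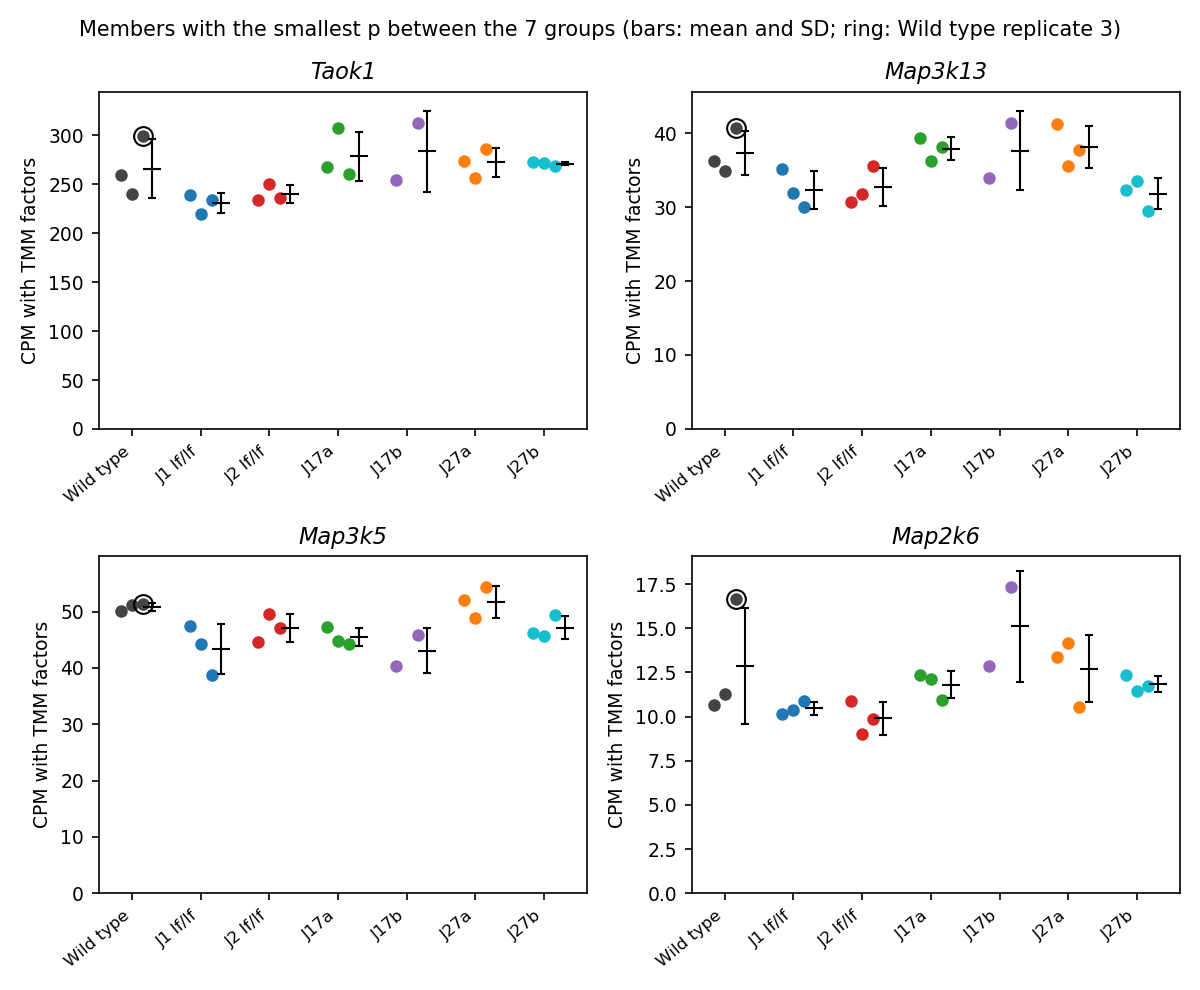
CPM of Taok1, Map3k13, Map3k5 and Map2k6 in each library by group, with the group mean and SD as black bars and Wild type replicate 3 ringed. The ringed library is the highest Wild type library for all 4 genes, and no group lies apart from all others, with ratios of the highest to the lowest group mean of 1.23, 1.20, 1.20 and 1.53.

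The next 4 members in order of p were Map3k19, Map3k1, Map3k9 and Map2k3, at unadjusted p from 0.0958 to 0.185. Map3k19 was 6.76, 5.91 and 5.27 CPM in Wild type, 5.18, 6.07 and 4.16 in J1 lf/lf, 7.25, 5.94 and 5.42 in J2 lf/lf, 5.85, 7.598 and 7.17 in J17a, 4.45 and 4.71 in J17b, 6.64, 5.33 and 6.38 in J27a, and 5.13, 6.20 and 5.40 in J27b. Both J17b libraries lay below all J17a and Wild type libraries. Map3k1 was 12.1, 11.9 and 12.01 CPM in Wild type, 13.3, 18.9 and 16.1 in J1 lf/lf, 13.2, 11.3 and 12.3 in J2 lf/lf, 13.4, 15.5 and 11.4 in J17a, 13.8 and 14.5 in J17b, 16.5, 12.1 and 13.2 in J27a, and 12.96, 13.3 and 15.8 in J27b. The MEKK1 gene Map3k1 was higher in each J1 lf/lf library than in each Wild type library, and libraries of J17a, J17b, J27a and J27b reached the J1 lf/lf range. Map3k9 was 103, 104 and 89.8 CPM in Wild type, 94.2, 89.0 and 84.7 in J1 lf/lf, 88.9, 98.1 and 111 in J2 lf/lf, 97.9, 95.9 and 109 in J17a, 99.1 and 112 in J17b, 107, 99.7 and 115 in J27a, and 101, 96.0 and 109.7 in J27b. The MLK1 gene Map3k9 was lowest in J1 lf/lf, whose range overlapped that of Wild type through Wild type replicate 3. Map2k3 was 9.14, 8.25 and 6.42 CPM in Wild type, 8.97, 8.35 and 6.61 in J1 lf/lf, 8.11, 8.21 and 9.04 in J2 lf/lf, 8.11, 6.47 and 8.03 in J17a, 9.26 and 6.93 in J17b, 7.07, 7.29 and 6.87 in J27a, and 5.75, 6.56 and 6.603 in J27b. The p38 activator Map2k3 was lowest in J27b, and Wild type replicate 3 lay inside the J27b range.

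Each line was compared with Wild type, and the 6 comparisons share the Wild type libraries. In J1 lf/lf, 0 of 33 members were called with edgeR, beside 0.0125% of all genes, and 4 had an unadjusted p under 0.05, beside 5.04% of all genes. Map3k1 was higher, at a log2 fold change of 0.43 (95% interval 0.14 to 0.72, adjusted p = 0.805). Lower were Map3k5 at -0.23 (95% interval -0.39 to -0.06, adjusted p = 0.836), the TAO kinase gene Taok1 at -0.21 (95% interval -0.38 to -0.03, adjusted p = 0.944) and Map3k13 at -0.21 (95% interval -0.40 to -0.0065, adjusted p = 0.944). The largest estimates in either direction otherwise were those of Map3k15 at 0.64 (95% interval -0.11 to 1.40, adjusted p = 0.944), Map2k6 at -0.29 (95% interval -0.61 to 0.03, adjusted p = 0.944) and Map3k8 at -0.33 (95% interval -1.10 to 0.43, adjusted p = 0.961). Without Wild type replicate 3 there were 5 members at an unadjusted p under 0.05, beside 9.83% of all genes, and 0 were called, beside 0.0623%. Map3k1 and Map3k5 were among both sets, at 0.43 and -0.22, and Map2k6 was at -0.07, while Map3k10 at -0.26, Map3k9 at -0.22 and Taok2 at -0.18 took the place of Taok1 and Map3k13. The interval lay within a 1.5-fold change for 28 of 33 members, where it did so for 69.5% of all genes.

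In J2 lf/lf 0 members were called with edgeR, beside 0.00623% of all genes, and 1 had an unadjusted p under 0.05, beside 7.94%. This was Map2k6, lower at -0.37 (95% interval -0.69 to -0.05, adjusted p = 0.618). Map3k13 was at -0.19 (95% interval -0.39 to 0.0091, adjusted p = 0.632), and the largest positive estimates were those of the low-count genes Map3k15 at 0.42 (95% interval -0.34 to 1.17, adjusted p = 0.728) and Map3k8 at 0.38 (95% interval -0.35 to 1.11, adjusted p = 0.746). Without Wild type replicate 3, where 0 members were at an unadjusted p under 0.05 beside 4.28% of all genes, Map2k6 was at -0.15, Map3k13 at -0.12 and Map3k8 at 0.22. J2 lf/lf replicate 3, the library with the low Mapk9, also bore on the estimates. Without it 0 members were called, Map2k6 was at -0.37 (unadjusted p = 0.0532), Map3k13 at -0.26 (unadjusted p = 0.0261) and Map3k8 at -0.13. Intervals within 1.5-fold were found for 28 of 33 members, beside 67.9% of all genes.

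The lines whose codes name a JNK1 isoform gave 0 called members each with edgeR, beside 0% of all genes in J17a and 0.0249% in J17b. In J17a 1 member had an unadjusted p under 0.05, beside 4.39% of all genes, and this was the MEKK4 gene Map3k4 at -0.16 (95% interval -0.30 to -0.01, adjusted p = 0.993), which was -0.15 without Wild type replicate 3, where 6.9% of all genes were at that unadjusted p. Map3k5 was at -0.16 (95% interval -0.33 to 0.0061, adjusted p = 0.993), and the largest positive estimates were those of Map4k1 at 0.73 (95% interval -0.27 to 1.73, adjusted p = 0.993) and Map3k15 at 0.66 (95% interval -0.08 to 1.41, adjusted p = 0.993). In J17b 2 members had an unadjusted p under 0.05, beside 5.85% of all genes. Map3k15 was higher at 1.09 (95% interval 0.27 to 1.91, adjusted p = 0.695) and Map3k5 lower at -0.24 (95% interval -0.43 to -0.05, adjusted p = 0.722). Map3k1 was at 0.24 (95% interval -0.09 to 0.57, adjusted p = 0.914) and Map3k19 at -0.39 (95% interval -0.79 to 0.02, adjusted p = 0.866). Without Wild type replicate 3 the count in J17b became 8, with 5 higher and 3 lower, beside 13.3% of all genes, and 0 were called, beside 0.336%. The members added were Map2k6 at 0.46, Map3k2 at 0.21, Map3k7 at 0.19 and Taok1 at 0.19 above Wild type, and Map3k10 at -0.33 and Map3k19 at -0.47 below it. In J17b replicates 1 and 2, Map2k6 was 12.9 and 17.3 CPM, Map3k2 49.8 and 52.2, Map3k7 67.3 and 82.3, and Taok1 255 and 313. Map3k10 was 185 and 145 CPM there, and Map3k19 4.45 and 4.71 CPM. J17b replicate 2 is also among the libraries whose deviation went with GC content, and its part in these estimates was not tested. Intervals within 1.5-fold were found for 30 members in J17a, beside 69.85% of all genes. In J17b, the group with 2 libraries, they were found for 28, beside 65.1%.

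The lines whose codes name a JNK2 isoform likewise gave 0 called members each with edgeR, beside 0% of all genes in J27a and 0% in J27b. In J27a 2 members had an unadjusted p under 0.05, beside 4.84% of all genes, Map4k2 at 0.19 (95% interval 0.0074 to 0.38, adjusted p = 0.959) and the DLK gene Map3k12 at 0.15 (95% interval 0.0022 to 0.30, adjusted p = 0.959). Both had their lowest value of the 20 libraries in Wild type replicate 3, and without it 0 members were at an unadjusted p under 0.05, beside 4.86% of all genes. The largest estimates were those of Map3k15 at 0.39 (95% interval -0.36 to 1.15, adjusted p = 0.959) and Map4k1 at 0.38 (95% interval -0.64 to 1.40, adjusted p = 0.965), and at the other end Map4k5 at -0.11 (95% interval -0.27 to 0.05, adjusted p = 0.959) and Map2k3 at -0.17 (95% interval -0.49 to 0.15, adjusted p = 0.959). Of these Map2k3 moved to -0.30 and Map4k5 to -0.07 without Wild type replicate 3. In J27b 3 members had an unadjusted p under 0.05, beside 6.94% of all genes. Map3k15 was higher at 0.80 (95% interval 0.05 to 1.54, adjusted p = 0.717), and lower were Map3k13 at -0.23 (95% interval -0.43 to -0.03, adjusted p = 0.716) and Map2k3 at -0.34 (95% interval -0.66 to -0.01, adjusted p = 0.717). Map3k8 was at 0.58 (95% interval -0.14 to 1.31, adjusted p = 0.747). With Wild type replicate 3 left out only Map2k3 was at an unadjusted p under 0.05 in J27b, at -0.46, beside 7.36% of all genes. Intervals within 1.5-fold were found for 29 members in each of J27a and J27b, beside 69.6% and 69.0% of all genes.

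Over whole families the estimates against Wild type were small. The median log2 fold change of the 33 members ran from -0.04 in J1 lf/lf to 0.03 in J2 lf/lf, and that of all genes from -0.0045 to 0.0042. Leaving out Wild type replicate 3 gave medians of -0.09 in J1 lf/lf and -0.02 in J2 lf/lf, the latter with its sign turned. Positive estimates were found for 12, 20, 20, 19, 21 and 15 of 33 members in J1 lf/lf, J2 lf/lf, J17a, J17b, J27a and J27b, and for between 48.9% and 50.9% of all genes. The numbers became 9, 16, 16, 15, 18 and 10 without that library, and 59 of the 198 estimates changed sign. Of the 16 MAP3K genes 14 had positive estimates in J27a and 6 in J1 lf/lf, or 11 and 5 without that library. Of the 10 MAP4K genes 2 had positive estimates in J1 lf/lf and 6 in J17a, or 3 and 5 without it. The MLK2 gene Map3k10 went from 0.20 to -0.06 in J2 lf/lf, from 0.08 to -0.18 in J17a, from 0.21 to -0.05 in J27a and from 0.18 to -0.08 in J27b. The p38 activator Map2k6 went from -0.12 to 0.10 in J17a, from -0.01 to 0.21 in J27a and from -0.11 to 0.11 in J27b. Map3k15, Map3k8 and Map4k1, the least abundant members, had intervals past 1.5-fold in all 6 comparisons. With the title number above 10, and so the high Rn45s, as a term in the fit, 0 members were called in the 6 lines. At an unadjusted p under 0.05 were 4, 1, 1, 1, 1 and 0 members, in place of 4, 1, 1, 2, 2 and 3. Only J17a has libraries on both sides of this split, so the term rests on J17a replicate 1 against J17a replicates 2 and 3. The share of all genes in this fit is not given here. The lower counts are therefore not read as a result about the members.

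**Figure D5:**
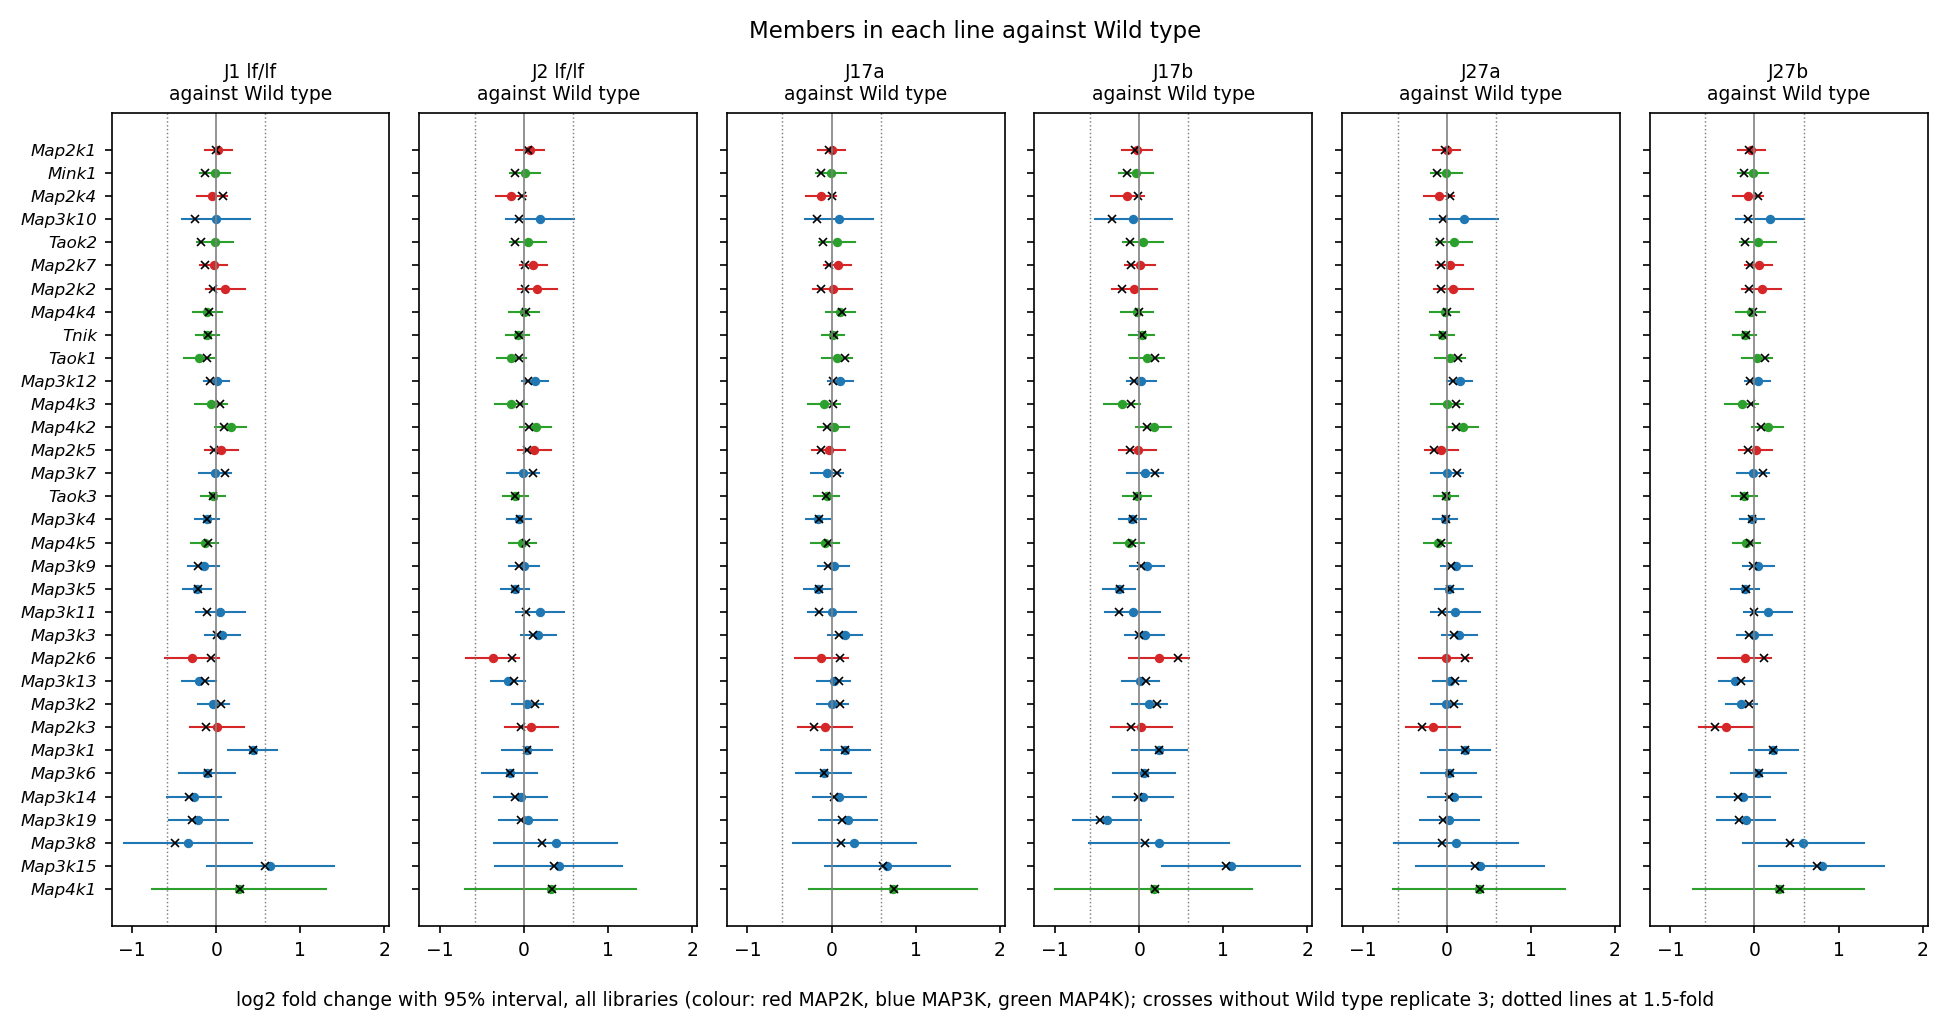
Log2 fold change (points) with its 95% interval (lines) for the 33 kinase genes in each of the 6 lines against Wild type, ordered by TPM and coloured by family, with estimates without Wild type replicate 3 as crosses and dotted lines at 1.5-fold. Between 28 and 30 of 33 intervals lie within the dotted lines in each panel, beside 65.1 to 69.85% over all genes. Those of Map3k8, Map3k15 and Map4k1, the least abundant genes, pass the dotted lines in every panel.

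The lines of the same JNK gene were compared directly, 7a with 7b, with no Wild type library on either side, although Wild type shares in the estimate of the spread. J17a and J17b differed in 0 called members with edgeR, beside 0% of all genes, and 2 members had an unadjusted p under 0.05, beside 5.9%. Map3k19 was higher in J17a, at a log2 difference of 0.58 (95% interval 0.18 to 0.99, adjusted p = 0.638), and Map2k6 lower, at -0.36 (95% interval -0.71 to -0.0031, adjusted p = 0.839). Map4k1 was at 0.56 (95% interval -0.59 to 1.70, adjusted p = 0.936) and Map3k15 at -0.43 (95% interval -1.23 to 0.38, adjusted p = 0.926). With Wild type replicate 3 left out the lowest adjusted p of a member was 0.342 in place of 0.638. J27a and J27b differed in 0 called members, beside 0% of all genes, and 1 member had an unadjusted p under 0.05, beside 5.79%. This was Map3k13, whose 3 J27a libraries lay above all 3 J27b libraries, at 0.26 (95% interval 0.06 to 0.46, adjusted p = 0.772). Here the lowest adjusted p was 0.387 with Wild type replicate 3 left out, in place of 0.772. Map3k14, the NIK gene, was at 0.22 (95% interval -0.10 to 0.54, adjusted p = 0.962), Map3k15 at -0.40 (95% interval -1.14 to 0.33, adjusted p = 0.977) and Map3k8 at -0.47 (95% interval -1.20 to 0.25, adjusted p = 0.964). Map2k4 was at 0.0096 (95% interval -0.19 to 0.21) and Map2k7 at 0.07 (95% interval -0.11 to 0.25) between J17a and J17b, and at -0.0062 (95% interval -0.18 to 0.17) and -0.02 (95% interval -0.18 to 0.14) between J27a and J27b.

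Each isoform line was also compared with the lf/lf line of its gene. In J17a against J1 lf/lf, 0 members were called with edgeR, beside 0.00623% of all genes, and 5 had an unadjusted p under 0.05, all higher in J17a, beside 6.54%. They were Taok1 at 0.27 (95% interval 0.09 to 0.45, adjusted p = 0.54), the HGK gene Map4k4 at 0.21 (95% interval 0.04 to 0.39, adjusted p = 0.67), Map3k19 at 0.41 (95% interval 0.06 to 0.76, adjusted p = 0.671), Map3k13 at 0.23 (95% interval 0.03 to 0.43, adjusted p = 0.697) and Map3k14 at 0.35 (95% interval 0.03 to 0.67, adjusted p = 0.716). Every J17a library of Taok1 lay above every J1 lf/lf library. Map3k8 was at 0.60 (95% interval -0.15 to 1.36, adjusted p = 0.853) and Map4k1 at 0.46 (95% interval -0.53 to 1.46, adjusted p = 0.937), and the lowest estimates were Map3k1 at -0.27 (95% interval -0.56 to 0.02, adjusted p = 0.803) and Map4k2 at -0.15 (95% interval -0.33 to 0.04, adjusted p = 0.853). In J17b against J1 lf/lf, 0 members were called, beside 0.0311% of all genes, and 3 had an unadjusted p under 0.05, beside 4.22%. They were higher in J17b, Map2k6 at 0.53 (95% interval 0.17 to 0.88, adjusted p = 0.806), Taok1 at 0.30 (95% interval 0.10 to 0.50, adjusted p = 0.768) and Map3k9 at 0.24 (95% interval 0.04 to 0.44, adjusted p = 1). Map3k8 was at 0.57 (95% interval -0.29 to 1.42, adjusted p = 1), Map3k1 at -0.19 (95% interval -0.52 to 0.13, adjusted p = 1) and Map3k19 at -0.17 (95% interval -0.58 to 0.24, adjusted p = 1). Both comparisons share the J1 lf/lf libraries.

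In J27a against J2 lf/lf, 0 members were called with edgeR, beside 0.00623% of all genes, and 3 had an unadjusted p under 0.05, beside 6.36%. They were higher in J27a, Map2k6 at 0.36 (95% interval 0.04 to 0.68, adjusted p = 0.709), Map3k13 at 0.22 (95% interval 0.02 to 0.42, adjusted p = 0.709) and Taok1 at 0.18 (95% interval 0.0055 to 0.36, adjusted p = 0.764). Map2k3 was at -0.26 (95% interval -0.58 to 0.06, adjusted p = 0.861) and Map3k8 at -0.27 (95% interval -0.9997 to 0.46, adjusted p = 0.963). In J27b against J2 lf/lf, 0 members were called, beside 0.00623% of all genes, and 2 had an unadjusted p under 0.05, beside 4.75%. They were lower in J27b, Map2k3 at -0.42 (95% interval -0.75 to -0.10, adjusted p = 0.94) and the MEKK2 gene Map3k2 at -0.20 (95% interval -0.38 to -0.01, adjusted p = 1). Map2k6 was at 0.26 (95% interval -0.06 to 0.58, adjusted p = 1) and Map3k15 at 0.38 (95% interval -0.35 to 1.11, adjusted p = 1). Leaving out J2 lf/lf replicate 3, the library with the low Mapk9, left 0 members called in both comparisons. It left 2 at an unadjusted p under 0.05 in each, with the share of all genes not given here. These comparisons share the J2 lf/lf libraries. The 6 lf/lf libraries all had title numbers up to 10 and low Rn45s, and 10 of the 11 isoform line libraries had numbers above 10. With this split as a term in the fit, 0 members were called in the 4 comparisons with lf/lf lines. The members at an unadjusted p under 0.05 numbered 2, 1, 0 and 0 in place of 5, 3, 3 and 2. The term rests on J17a replicate 1 against J17a replicates 2 and 3, and the share of all genes in this fit is not given here. These lower counts are therefore not read as a result about the members.

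Whether the difference between 7a and 7b differed between the JNK1 and the JNK2 lines was tested as a difference of differences. edgeR called 0 members, beside 0.00623% of all genes, and 0 members had an unadjusted p under 0.05, beside 6.7%. Without Wild type replicate 3, edgeR again called 0 members, beside 0.00623% of all genes. In that fit 2 members, each with a negative estimate, had an unadjusted p under 0.05, beside 9.72%. The largest estimates were those of Map3k8 at 0.51 (95% interval -0.60 to 1.61, adjusted p = 0.925), Map4k1 at 0.46 (95% interval -1.06 to 1.99, adjusted p = 0.962), Map2k6 at -0.46 (95% interval -0.93 to 0.02, adjusted p = 0.756) and Map2k3 at -0.27 (95% interval -0.76 to 0.22, adjusted p = 0.903). Intervals within 1.5-fold were found for 24 of 33 members, beside 49.99% of all genes. Over these 13 comparisons and the test of all groups the DESeq2 test and limma on TPM each called 0 members. At an unadjusted p under 0.05 in a test were 0 to 5 members (DESeq2) and 0 to 4 (limma), with the shares of all genes not given here.

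The other genes of these pathways were taken from a list of 62, all tested. It held 14 MAP kinases, 6 RAF and MOS kinases, 11 scaffolds and partners, 11 regulators of MAP3K kinases, 13 other STE20 kinases and 7 JNK targets. In J17b against Wild type 0 rose and 1 fell, Mapk8 (-0.67, 95% interval -0.88 to -0.46, adjusted p = 0.0128, edgeR). In J17b against J1 lf/lf 0 rose and 1 fell, again Mapk8, 1.61% of the list in each beside 0.0249% and 0.0311% of all genes (-0.57, 95% interval -0.78 to -0.36, adjusted p = 0.0486). The call against Wild type did not hold when J17b replicate 1 (adjusted p = 0.0801) or J17b replicate 2 (adjusted p = 0.239) was left out, which leaves 1 library of J17b whose spread is taken from the other groups, nor with the groups of the contrast alone, with limma or with the term for title numbers, and the call against J1 lf/lf was kept only without Wild type replicate 2 or Wild type replicate 3 when 1 library was left out (adjusted p = 0.0453 and 0.00307). The estimates stayed negative under each of these, from -0.75 to -0.56 against Wild type and from -0.64 to -0.52 against J1 lf/lf with 1 library left out. The term for title numbers rests on J17a replicate 1 against J17a replicates 2 and 3, so no conclusion is drawn from the call lost with it. In each of the other 11 comparisons edgeR called 0 of the 62 in either direction with all libraries. Between 1 of them (J27b against Wild type, 1.61% beside 6.94% of all genes) and 9 (J27a against J2 lf/lf, 14.5% beside 6.36%) had an unadjusted p under 0.05. Without J2 lf/lf replicate 3, edgeR called Mapk9 in J2 lf/lf against Wild type, in J27a against J2 lf/lf and in J27b against J2 lf/lf. Mapk8 was called in J17a against J17b when Wild type replicate 3 was left out, beside 0.0498% of all genes. The DESeq2 test called Mapk9 in J2 lf/lf against Wild type, Mapk9 and Gadd45g in J27a against J2 lf/lf, Mapk8 in J17a against J17b and Ksr2 beside Mapk8 in J17b against J1 lf/lf. With the groups of the contrast alone Gadd45g was called in J27a against J2 lf/lf, and Gadd45g, Junb and Pak3 in J27b against J2 lf/lf, and without J17b replicate 1 Ksr2 was called in J17b against Wild type and against J1 lf/lf. The shares of all genes called by DESeq2, with the groups of the contrast alone, or without a J2 lf/lf or J17b library are not given here. The calls in those fits are therefore not read as results about these genes. The scaffold gene Mapk8ip1 (JIP1) was at 0.0096 and the target gene Jun at -0.08 in J17b against Wild type, with adjusted p of 0.997 and 0.972.

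The positions of the members on mm10 were read from GENCODE M21. Map2k4 lies on chromosome 11, 65688243 to 65788297, and Map2k7 on chromosome 8, 4238740 to 4247897. Chromosome 11, which also carries Mapk9, holds 7 of the 33 members (Map2k3, Map2k4, Map2k6, Map3k3, Map3k14, Mink1 and Taok1), 21.2%, where it holds 7.47% of protein-coding genes. They lie between 11.1 Mb (Map2k3) and 60.5 Mb (Map2k6) from Mapk9, with Map2k4 at 15.8 Mb. In J2 lf/lf against Wild type Map2k3 was at 0.09, Map2k4 at -0.15 and Map2k6 at -0.37. Map3k3 was at 0.17, Map3k14 at -0.04, Mink1 at 0.0094 and Taok1 at -0.15, and 0 of the 7 passed the test. With Wild type replicate 3 left out the 7 were, in this order, at -0.04, -0.02, -0.15, 0.11, -0.105, -0.10 and -0.06. Of the members, 0 lie on chromosome 14 with Mapk8.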

How the data were processed

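Poly(A)-enriched RNA of mouse brain was read in pairs of 150 bases, per the labels' protocols. The authors deposited an estimated count and a TPM value per gene and library, made with cutadapt and RSEM on mm10, per the submitters' processing notes; versions, annotation and use of strand are not stated in the sources used here. RSEM divides reads that match several genes, and 4.11% of the deposited counts were not whole.

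Libraries were grouped by title, and no pair of replicates was as close as sampling noise, so each counted once. The estimated counts were rounded and fitted in 1 model of 20 libraries and 7 group means with edgeR 4.0.16 in R 4.3.3 (TMM factors 0.975 to 1.03, filterByExpr, robust glmQLFit and glmQLFTest; biological coefficient of variation 0.12), which left 16063 genes. There were 13 two-sided contrasts and a test over the groups. P-values were adjusted by Benjamini-Hochberg over all tested genes, with a threshold of 0.05. Levels between genes are TPM and levels between libraries CPM. Intervals are 95% intervals of each fold change, not adjusted over members. Gene positions, GC content, overlaps and shared 50-base words came from GENCODE M21.

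Alternatives were no filter, the DESeq2 1.42.0 test, DESeq2 size factors, only the groups of a contrast, the replicate number as a block, limma 3.58.1 on log2(TPM + 1) and log2(TPM + 0.1), Rn45s left out, the title number above 10 as a term, and each library left out. The contrast of J1 lf/lf with Wild type and the test over the groups were also run on simulated data with changes set in J1 lf/lf alone. The simulation set no library apart and did not cover the contrasts with J17b. The members and lists were chosen with earlier results of these data known. Values in every library are given for Map2k4, Map2k7, any called member, the 8 members with the smallest p over the groups and the most and least abundant member of each family, and each contrast names its 2 largest estimates in either direction. Members at an unadjusted p under 0.05 are named as well, chosen after their values were seen.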

Additional observations from a re-analysis of the deposited data

How the results depend on the processing

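The count of called members was 0 in each of the 14 tests under every alternative run and with each of the 20 libraries left out in turn, with a lowest adjusted p of 0.0994. The replicate numbers did not pair the samples. Deviations of 57 same-numbered pairs of libraries from their group means had a median correlation of -0.0102 (-0.176 to 0.148), and 3 of 20 libraries correlated best with their own number; the replicate block left 0 members called, and with it the adjusted p of Mapk8 was 0.0598 in J17b against Wild type and 0.148 in J17b against J1 lf/lf. Without Wild type replicate 3, 59 of 198 log2 fold changes of members against Wild type changed sign, and 0 of them passed the test. Map2k7 changed sign in J1 lf/lf with limma (0.00811 and 0.00822), in J17b with the replicate block (-0.00797) and in J27a with limma (-0.00660 and -0.00668), and Map4k5 in J27a with the title number as a term (0.044). Leaving out 1 library at a time moved Map2k4 from -0.14 to 0.076 in J1 lf/lf, from -0.16 to 0.042 in J27a and from -0.16 to 0.048 in J27b. It moved Map2k7 from -0.13 to 0.046 in J1 lf/lf, from -0.025 to 0.15 in J17a, from -0.093 to 0.083 in J17b, from -0.064 to 0.12 in J27a and from -0.048 to 0.13 in J27b. Except in J1 lf/lf, Wild type replicate 3 was the library that turned these signs; there Map2k4 turned without Wild type replicate 3 or J1 lf/lf replicate 3, and Map2k7 without Wild type replicate 2 or J1 lf/lf replicate 1. Map3k8 ran from -0.13 to 0.67 in J2 lf/lf, turning without J2 lf/lf replicate 3, and Map3k15 from -0.14 to 0.65 and Map4k1 from -0.18 to 0.68 in J27a, turning without J27a replicate 3. In J27a against J2 lf/lf Map3k8 ran from -0.56 to 0.24, turning without J2 lf/lf replicate 3. The cause of these changes was not tested. The 3 least abundant members had intervals past 1.5-fold in each line against Wild type, and the part of depth in this was not tested.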
